A study of Mus musculus with 6 samples.

Results

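The genes described here are 8 mouse genes for DNA repair, nucleotide supply and damage signalling that are known targets of p53 or relatives of one: Xpc, Ddb2, Ercc5, Polk, Rrm2b, Gadd45a, Gadd45b and Gadd45g. They were taken by symbol from a fixed list, and all 8 were found among the 23284 genes of the count tables. All 8 also passed the filter on low counts, which left 10512 genes for testing. The samples were Ter119+, CD71+ erythroblasts, the nucleated precursors of red cells, sorted from C57BL/6 embryos at E10.5, and their polyadenylated RNA was sequenced. The sample labels give fetal liver as the source, and the series design gives fetal blood. The group labelled Setd8 null held 3 libraries of genotype SETD8fl/fl EpoR Cre, in which the recombinase is driven from the Epor locus of erythroid cells. Setd8 encodes a histone H4 lysine methyltransferase. The control group held 3 libraries. Control replicates 1 and 3 were Setd8 +/+ EpoRCre and so carried the recombinase as the null cells did, and control replicate 2 was Setd8 fl/fl EpoR WT, with floxed alleles and no recombinase.

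p53 is a transcription factor that is stabilised when DNA is damaged or replication is disturbed, and it switches on genes that halt the cell cycle, trigger cell death or help to repair the damage. Its repair targets act at separate steps. XPC and DDB2 bind distorted DNA in nucleotide excision repair, ERCC5 (also named XPG) cuts the damaged strand, POLK is a polymerase that copies past lesions, and RRM2B is a ribonucleotide reductase subunit that makes deoxynucleotides outside S phase. The GADD45 proteins are small stress proteins that bind PCNA, the cyclin B kinase and the kinase MAP3K4. In rodent cells Ddb2 is known to lack the p53 response of its human counterpart.

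Gene counts ran from 7756940 in control replicate 1, the shallowest library, to 21434719 in control replicate 2. Control replicates 1 and 2 and null replicate 1 have titles without a trailing letter (the unlettered set), and control replicate 3 and null replicates 2 and 3 have a letter (the lettered set). With group in the model, 28.5% of tested genes differed between the sets. Each comparison was made with the set as a term (set-adjusted), to compare null with control within the sets. It was also made with group alone, because the set term was known from earlier results of these data to raise the number of calls. Levels are counts per 1000000, scaled by TMM factors (CPM). The targeted gene, Setd8, was still counted in every library, at 73.9, 74.8 and 203 CPM in control replicates 1, 2 and 3 and 48.9, 100.3 and 96.3 in null replicates 1, 2 and 3. Null replicates 2 and 3 were above control replicates 1 and 2, while within each set the null libraries were below the controls, and Setd8 was called lower in the set-adjusted fit alone. These counts cover the whole gene and do not check the deletion. Reads of Y-linked genes were found in each null library and control replicate 1. Control replicates 2 and 3 had at most 0.420 per 1000000 counts, without TMM scaling. Of 12 erythroid markers 11 had reads in every library. Of the 11 tested, 3 were lower in null cells and 0 higher set-adjusted, against 4.16% and 8.65% of all tested genes. The summed level of the 12 was 348511 to 526714 CPM in the controls and 505302, 247179 and 214700 in null replicates 1, 2 and 3, so that the lettered null libraries were lowest. Markers of other cells were low but differed with the groups. Set-adjusted, 3 of 7 tested macrophage, 3 of 5 endothelial and 3 of 6 megakaryocyte genes were higher. So were 1 of 2 hepatic and 1 of 2 granulocyte and mast cell genes, and 0 of 1 mesenchymal gene. The summed level ran from 2.34 to 12.1 CPM in controls and 34.9 to 95.6 in null libraries for 15 macrophage genes, 3.94 to 16.7 and 30.3 to 39.0 for 11 endothelial genes, and 28.2 to 47.9 and 105.6 to 152 for 9 megakaryocyte genes. For 10 granulocyte and mast cell genes it was 0 to 2.88 and 73.3 to 118, mostly Ltf and Mpo, with Elane and Cpa3 at 0 throughout. For 10 hepatic genes it was 1.48 to 4.46 and 9.10 to 27.3, with Alb and Fgb at 0, and for 10 mesenchymal genes 0.296 to 3.26 and 0.207 to 3.18, with Dcn and Twist1 at 0. Emcn was the 1 endothelial gene at 0 in all libraries. The part of these markers in the results for the repair genes was not tested.

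Set-adjusted, 4 of the 8 genes rose in null cells and 0 fell: the polymerase Polk, the endonuclease Ercc5 and the stress genes Gadd45a and Gadd45g. Of all tested genes, 8.65% rose and 4.16% fell in that fit. With group alone 1 of the 8 rose, Ercc5, and 0 fell, against 1.14% and 0.00951% of all genes. At an unadjusted p under 0.05 in edgeR's quasi-likelihood test, 5 were higher and 0 lower in each fit, against 16.4% and 11.5% of all genes set-adjusted and 10.6% and 4.99% with group alone. Gadd45b was higher in every null library but did not pass in either fit, and Xpc, Ddb2 and Rrm2b showed overlapping levels in the groups. In 5 of the 8 genes the lowest null library exceeded the highest control, which held for 14.9% of tested genes, and in 0 did the reverse hold, against 9.16%. The 5 include Gadd45b, which passed the filter on low counts only through the null libraries, and without it they are 4 of 7. The median log2 ratio over the 8 genes was 1.47 set-adjusted and 1.62 with group alone, against 0.044 and 0.13 over all tested genes. These genes were chosen with results of the same libraries known, so their counts describe them and add no independent support for a p53 response. The p53 gene itself, Trp53, measured 209 ± 69.0 CPM in control and 186 ± 77.6 in null libraries (SD, n = 3 each) and did not pass in either fit. Mdm2 and Cdkn1a, reference targets of p53, passed in both.

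**Figure D1:**
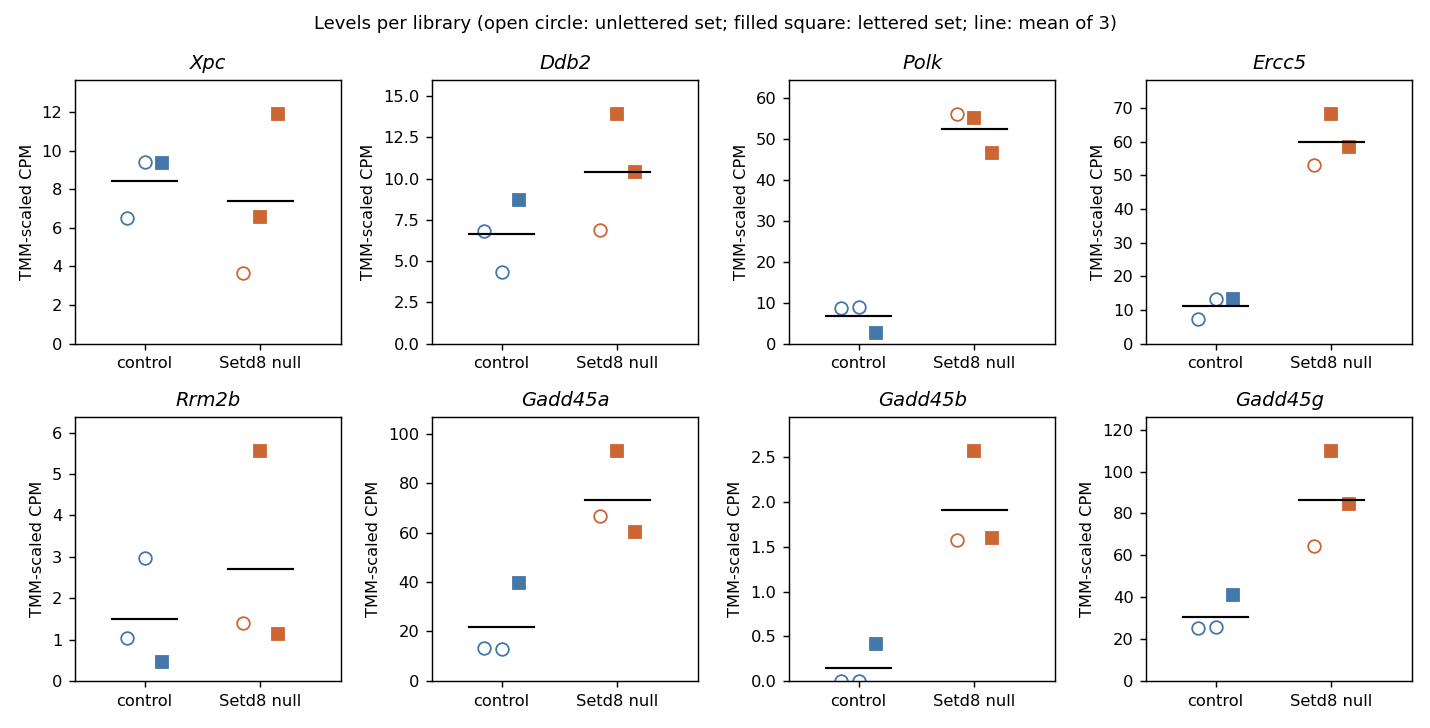
TMM-scaled CPM (vertical axes, each starting at 0) of the 8 genes in 3 control and 3 Setd8 null libraries, with open circles for the unlettered set, filled squares for the lettered set and a line at the mean. The groups are apart for Polk, Ercc5, Gadd45a, Gadd45b and Gadd45g and overlap for Xpc, Ddb2 and Rrm2b.

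Neither gene for damage recognition passed. Xpc, whose protein binds the strand opposite a lesion, stood at 6.52, 9.43 and 9.35 CPM in control replicates 1, 2 and 3 and at 3.68, 6.57 and 11.9 CPM in null replicates 1, 2 and 3. The lowest and the highest level were both in null libraries. The set-adjusted log2 ratio was -0.56 (SE 0.54, 95% interval -1.74 to 0.62, adjusted p = 0.557 by edgeR's quasi-likelihood test with Benjamini-Hochberg adjustment). The interval ended at 1.54-fold higher in that fit and at 2.12-fold with group alone. Without null replicate 1 the set-adjusted log2 ratio was -0.026 (SE 0.66). Ddb2, the lesion-binding partner of DDB1, had 6.82, 4.37 and 8.70 CPM in control replicates 1, 2 and 3 and 6.90, 13.9 and 10.4 CPM in null replicates 1, 2 and 3. Null replicate 1 was close to control replicate 1 and below control replicate 3. The set-adjusted log2 ratio of Ddb2 was 0.40 (SE 0.45, 95% interval -0.58 to 1.39, adjusted p = 0.621), an interval that reaches a 2.61-fold rise. In the annotation used here, GENCODE M21, Ddb2 overlaps Acp2 on the opposite strand over 2527 bases of gene span, introns included. The overlap of their exons was not measured. Without a stated strand setting, reads from any exon part that they share cannot be told apart or may have been left uncounted. Acp2 had 87 to 291 counts in the control and 165 to 295 in the null libraries.

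Ercc5, which makes the incision on the 3′ side of the lesion, rose in both fits. Its levels were 7.26, 13.4 and 13.3 CPM in control replicates 1, 2 and 3 and 52.9, 68.2 and 58.5 CPM in null replicates 1, 2 and 3. Every null library had more than the highest control, and the spread within each group was small beside the gap. The mean went from 11.3 ± 3.49 to 59.9 ± 7.72 CPM (SD, n = 3 each). The set-adjusted log2 ratio was 2.29 (SE 0.28, 95% interval 1.68 to 2.90, adjusted p = 0.000407), a fold of 4.90, and with group alone it was 2.40 (SE 0.35, adjusted p = 0.0321). Set-adjusted, the call held in all 6 fits without 1 library. With group alone it held only in the fit without control replicate 3. That fit called 109 of all tested genes higher, and the others without 1 library called 3 to 41. The log2 ratio of Ercc5 with group alone was 2.15 when control replicate 1 was left out and 2.52 for control replicate 2. Leaving out null replicate 1 gave 2.47, null replicate 2 gave 2.24 and null replicate 3 gave 2.33.

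Polk, the translesion polymerase, had the largest rise of the genes that passed. It stood at 8.60, 9.05 and 2.46 CPM in control replicates 1, 2 and 3 and at 56.1, 55.1 and 46.6 CPM in null replicates 1, 2 and 3. The null libraries of both sets were alike, and control replicate 3 was lowest. The mean rose from 6.70 ± 3.68 to 52.6 ± 5.23 CPM, with a set-adjusted log2 ratio of 3.47 (SE 0.39, 95% interval 2.61 to 4.33, adjusted p = 0.000253), a fold of 11.1. With group alone the log2 ratio was 2.98 (SE 0.53) and Polk did not pass (adjusted p = 0.0574), while without control replicate 3 it passed at 2.51 (adjusted p = 0.0297). Set-adjusted it passed in all 6 fits without 1 library, from 2.65 without control replicate 3 to 4.35 without null replicate 1.

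Rrm2b, the p53-inducible subunit of ribonucleotide reductase, had few reads. It had 7, 56 and 10 counts in control replicates 1, 2 and 3 and 24, 108 and 22 in null replicates 1, 2 and 3, or 1.04, 2.98 and 0.465 CPM and 1.40, 5.55 and 1.14 CPM. Control replicate 2 was above 2 of the null libraries, and null replicate 2 was above every other library. Null replicate 2 exceeded null replicate 3 by 4.88-fold, with an exact 95% counting interval of 3.06 to 8.10, so that replicates of 1 group differed by more than counting error. The set-adjusted log2 ratio was 1.11 (SE 1.45, 95% interval -2.06 to 4.28, adjusted p = 0.675), and it turned to -0.56 without control replicate 3. Rrm2b did not pass in either fit, and its spread between replicates was wide. Rrm2, the S-phase counterpart of Rrm2b and chosen here after its values were seen, stood at 563 and 608 CPM in control and null cells (set-adjusted log2 ratio 0.28, adjusted p = 0.362) and did not pass.

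The 3 Gadd45 genes encode related proteins that are induced by different stresses. Gadd45a, the member with the best known p53 response, stood at 13.2, 12.8 and 39.7 CPM in control replicates 1, 2 and 3 and at 66.8, 92.8 and 60.3 CPM in null replicates 1, 2 and 3. The groups were apart, with control replicate 3 at about 3 times the level of the other controls. The mean rose from 21.9 ± 15.4 to 73.3 ± 17.2 CPM, and the set-adjusted log2 ratio was 1.64 (SE 0.31, 95% interval 0.97 to 2.31, adjusted p = 0.00532). In the fit with group alone the log2 ratio was 1.74 (SE 0.51, adjusted p = 0.161), and without control replicate 3 it passed there at 2.43 (adjusted p = 0.0334). Without null replicate 1 the set-adjusted log2 ratio was 0.94 and no longer passed (adjusted p = 0.213). With sex as a further term it was 1.98 and did not pass (adjusted p = 0.0918). On the opposite strand the span of Gadd45a, introns included, overlaps that of the noncoding E230016M11Rik over 859 bases. E230016M11Rik had 3 to 15 counts per library.

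Gadd45g had the highest mean level of the 3 and a lower set-adjusted ratio than Gadd45a, an order that turned without null replicate 1 and in the lettered set, and in null replicate 1 its level was below that of Gadd45a. It stood at 25.2, 25.8 and 40.8 CPM in control replicates 1, 2 and 3 and at 64.5, 109.6 and 84.7 CPM in null replicates 1, 2 and 3. The groups did not overlap. Its mean rose from 30.6 ± 8.87 to 86.2 ± 22.6 CPM, with a set-adjusted log2 ratio of 1.29 (SE 0.20, 95% interval 0.86 to 1.73, adjusted p = 0.00182), a fold of 2.45. With group alone the log2 ratio was 1.49 (SE 0.33, adjusted p = 0.0881). Without null replicate 1 the set-adjusted log2 ratio was 1.24 and did not pass (adjusted p = 0.0739). With sex as a further term it was 1.33 and did not pass either (adjusted p = 0.0802).

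Gadd45b was almost silent in controls. It had 0, 0 and 9 counts in control replicates 1, 2 and 3 and 27, 50 and 31 in null replicates 1, 2 and 3, or 0, 0 and 0.419 CPM and 1.58, 2.57 and 1.60 CPM. Only the null libraries carried Gadd45b past the filter on low counts. In the unlettered set, where both controls were at 0, null replicate 1 was at least 13.4-fold higher, measured against 3 counts over the pair of controls. In the lettered set the ratio was 4.98, with an exact 95% counting interval of 2.50 to 11.3. The fitted set-adjusted log2 ratio was 3.75 (SE 1.38, 95% interval 0.73 to 6.77, adjusted p = 0.101) and that with group alone 3.53 (adjusted p = 0.301), so Gadd45b did not pass. The set-adjusted log2 ratio ran from 2.29 without null replicate 1 to 7.72 without control replicate 3, the 1 control with reads. It was 7.14 with sex as a further term. With group alone it was 7.95 without control replicate 3.

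**Figure D2:**
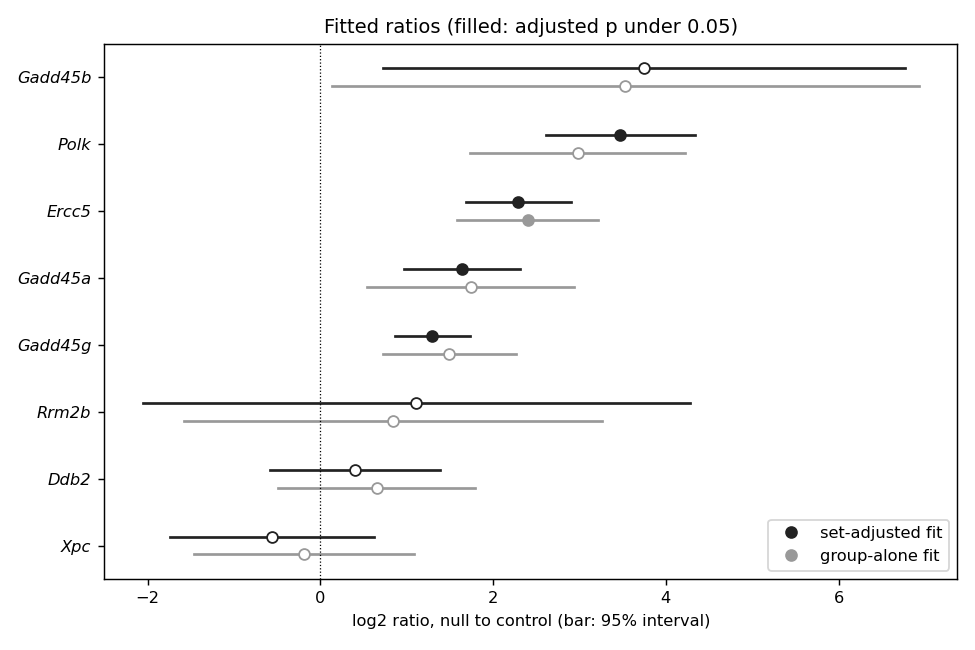
Log2 ratio of null to control (horizontal axis) with its 95% interval for each gene, in the set-adjusted fit (black) and with group alone (grey), filled where the adjusted p was under 0.05. Polk, Ercc5, Gadd45a and Gadd45g are filled in black and Ercc5 in grey, and the intervals of Xpc, Ddb2 and Rrm2b span 0.

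Since Gadd45a, Gadd45b and Gadd45g differ in level and in ratio, the sequences before their starts are shown with that of Ercc5, the gene that passed in both fits. They come from RefSeq (GRCm38.p6, which differs from the mm9 build of the counts). Of the 8 genes, 5 were matched in that table: Ercc5, Gadd45a, Gadd45b, Gadd45g and Polk. The stretches begin 250 bases before the RefSeq start and leave out bases that GENCODE M21 places in an exon. They lie on the plus strand at chr13:51846425-51846674 for Gadd45g, on the plus strand at chr10:80929841-80930072 for Gadd45b, on the minus strand at chr6:67037458-67037657 for Gadd45a and on the plus strand at chr1:44147494-44147743 for Ercc5. Capitals mark matches, on either strand, to the CCAAT box (CCAAT), the octamer (ATGCAAAT), the E-box (CACGTG) and the TATA box (TATAAA).
Gadd45a: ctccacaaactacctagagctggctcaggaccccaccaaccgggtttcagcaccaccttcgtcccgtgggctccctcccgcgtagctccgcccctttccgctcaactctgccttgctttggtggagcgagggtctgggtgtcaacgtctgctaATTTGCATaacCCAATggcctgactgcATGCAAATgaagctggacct
Gadd45b: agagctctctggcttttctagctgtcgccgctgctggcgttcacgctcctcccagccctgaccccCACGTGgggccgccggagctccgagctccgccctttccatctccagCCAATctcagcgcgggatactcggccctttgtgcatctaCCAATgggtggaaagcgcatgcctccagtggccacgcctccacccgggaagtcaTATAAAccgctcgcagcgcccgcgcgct
Gadd45g: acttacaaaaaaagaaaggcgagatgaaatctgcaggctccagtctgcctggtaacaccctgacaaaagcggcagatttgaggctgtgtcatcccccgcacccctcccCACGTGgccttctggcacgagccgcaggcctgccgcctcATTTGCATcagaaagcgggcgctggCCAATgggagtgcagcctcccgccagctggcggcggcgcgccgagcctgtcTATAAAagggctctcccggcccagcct
Ercc5: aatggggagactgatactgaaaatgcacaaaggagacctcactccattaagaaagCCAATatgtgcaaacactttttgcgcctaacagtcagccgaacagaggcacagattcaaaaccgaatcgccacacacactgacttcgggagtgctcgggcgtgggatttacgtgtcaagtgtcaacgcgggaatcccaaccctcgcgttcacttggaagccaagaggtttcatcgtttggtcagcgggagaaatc

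A CCAAT box was found before all 4 of these genes, but before neither start of Polk, whose sequence is not printed. It was present in 33.8% of the 32851 RefSeq windows of 250 bases. The octamer, which was present in 1.60% of windows, occurred 2 times before Gadd45a, from base -97 to -90 and from -70 to -63, and once before Gadd45g, from -103 to -96, and was not matched before Gadd45b. The E-box (6.02% of windows) and the TATA box (12.4%) were matched before Gadd45b and Gadd45g. The p53 decamer, the consensus of a p53 half-site, was found in 7.13% of windows, and in the full windows of these genes it matched between bases -40 and -31 of Gadd45a and between -231 and -222 of the inner of 2 Polk starts. These motifs, apart from the p53 decamer, were picked after the sequences were read. A match describes letters in a window and is not a measured binding site.

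The ratios were also taken within each title set, which share no library. Both sets had the null cells higher for 6 of the 8 genes, a property of 36.2% of tested genes, and by more than 2-fold for 4, Polk, Ercc5, Gadd45b and Gadd45g, against 12.4%. Without Gadd45b, filtered in by its null libraries, these counts are 5 and 3 of 7. The log2 ratios in the unlettered and lettered sets were 2.41 and 2.24 for Ercc5, 1.33 and 1.24 for Gadd45g and 0.33 and 0.46 for Ddb2, close to each other. For Polk they were 2.65 and 4.30 and for Gadd45a 2.35 and 0.91, in opposite order. For Gadd45b the difference was 14.5-fold (log2 ratio 3.86) in the unlettered set, whose controls were both at 0, and 4.01-fold in the lettered set. Both folds come from log2 CPM with a prior count of 2, while the lettered ratio of 4.98 given above was taken from pooled counts. Xpc was at -1.07 and -0.079 and Rrm2b at -0.32 and 2.20. The test of the difference between sets, an interaction term in edgeR's quasi-likelihood fit, called 0 of the 8 genes, against 0.00951% of all genes. Before adjustment 2 of the 8, Polk (adjusted p = 0.568) and Gadd45a (adjusted p = 0.592), were under 0.05, against 758 of the 10512 tested genes. These opposite orders rest on control replicate 3, the 1 lettered control, which had the lowest Polk and the highest Gadd45a level among controls. With group in the model, Gadd45a (log2 ratio 0.89, adjusted p = 0.0454) and Gadd45g (0.63, adjusted p = 0.0310) were higher in the lettered set. These were 2 of the 8 genes, while 28.5% of all tested genes differed between the sets in either direction.

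**Figure D3:**
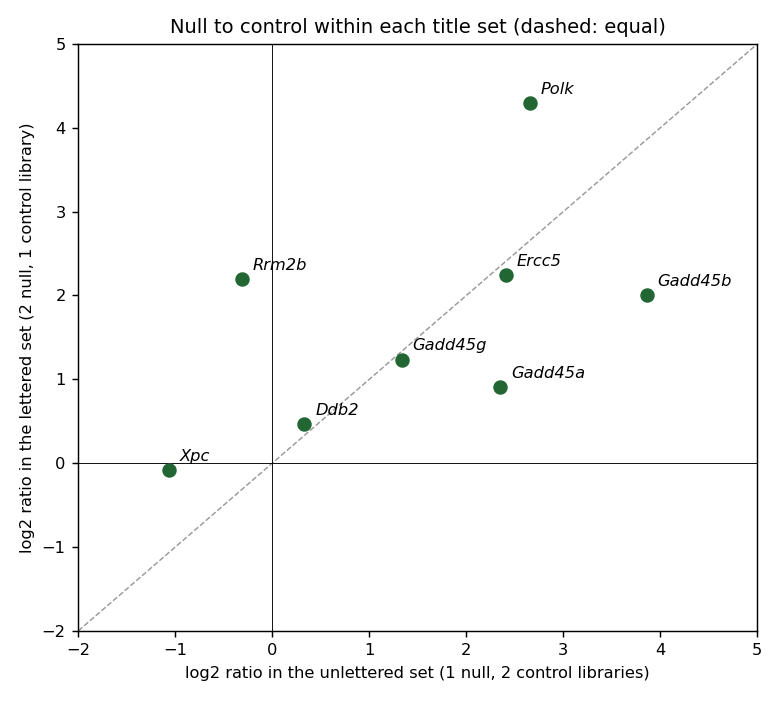
Log2 ratio of null to control for each gene in the unlettered set (horizontal axis) and the lettered set (vertical axis), with a dashed line where they are equal. Ercc5, Gadd45g and Ddb2 sit near the line, Polk, Rrm2b and Xpc lie above it, and Gadd45a and Gadd45b below it.

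Levels were set against each other per kilobase of exon, with exon lengths from GENCODE M21. In controls Gadd45g (26.1 ± 7.56 CPM per kilobase) and Gadd45a (12.4 ± 8.75) led, and their libraries overlapped. Ddb2 (2.42 ± 0.794), Ercc5 (1.93 ± 0.596), Xpc (1.53 ± 0.301) and Polk (1.21 ± 0.662) followed, and neighbours in that order overlapped. Rrm2b (0.164 ± 0.144) and Gadd45b (0.0878 ± 0.152) were lowest and overlapped. In null cells Gadd45g (73.5 ± 19.3) and Gadd45a (41.6 ± 9.77) led again, without overlap. Ercc5 (10.2 ± 1.32) and Polk (9.47 ± 0.942) came next and overlapped with each other, but no longer with Ddb2 (3.80 ± 1.28). Xpc (1.34 ± 0.758) and Gadd45b (1.21 ± 0.355) overlapped, and Rrm2b (0.295 ± 0.271) was lowest. Thus Ercc5 and Polk went from levels like those of the damage recognition genes to levels above them. In sorted bulk samples, more RNA per cell cannot be told apart from a larger share of cells that express a gene.

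Lists of other genes of the same pathways are read against the shares of all tested genes, 8.65% higher and 4.16% lower set-adjusted and 1.14% higher with group alone. Of 29 other nucleotide excision repair genes, all tested, 1 rose and 0 fell set-adjusted, and none passed with group alone. The median log2 ratio of this list was -0.21. The 1 gene was Cdk7, the kinase of the repair and transcription factor TFIIH (52.2 ± 9.21 to 75.9 ± 11.7 CPM, adjusted p = 0.0343, log2 ratio 0.68, SE 0.19), and its call was lost in all 6 fits without 1 library. Ddb1, the partner of DDB2 and the most abundant of the list, stood at 290 and 307 CPM (adjusted p = 0.971). Cetn2, which binds XPC, stood at 33.1 ± 2.42 and 54.5 ± 8.27 CPM (adjusted p = 0.0685), and the ligase Lig1 at 132 ± 12.9 and 92.1 ± 18.5 (adjusted p = 0.115).

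Of 14 tested genes of translesion synthesis and PCNA ubiquitination other than Polk, 1 rose and 2 fell set-adjusted (8.65% and 4.16% of all genes), with a median log2 ratio of -0.26, and none passed with group alone. Ube2b, which conjugates ubiquitin to PCNA together with RAD18, rose, with 60.5 ± 9.69 CPM in controls and 109.9 ± 19.6 in the null group (adjusted p = 0.0166, log2 ratio 0.86, SE 0.20). Usp1 and Wdr48, which form the enzyme that removes this ubiquitin, fell. Wdr48 went from 48.3 ± 6.32 to 24.3 ± 1.14 CPM (adjusted p = 0.0221, log2 ratio -0.95, SE 0.23). Usp1 stood at 63.1, 57.4 and 154.9 CPM in control replicates 1, 2 and 3 and 24.5, 70.1 and 73.3 in null replicates 1, 2 and 3 (adjusted p = 0.00157). The call of Usp1 held in 6 of 6 fits without 1 library and those of Ube2b and Wdr48 in 2 of 6. Ube2b was lost when any of control replicates 1 and 2 or null replicates 1 and 2 was left out, and Wdr48 for any control or null replicate 1.

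Of 18 genes of deoxynucleotide supply other than Rrm2b, 1 rose and 1 fell set-adjusted, near the 8.65% and 4.16% of all genes, with a median log2 ratio of -0.14, and none passed with group alone. Nme2, a nucleoside diphosphate kinase, rose, with 30.2 ± 8.83 CPM in controls and 53.4 ± 29.8 in the null group (adjusted p = 0.0172, log2 ratio 1.06, SE 0.25), and its near-identical neighbour Nme1, at 622 ± 113 and 504 ± 183 CPM, did not pass. Reads of this pair may have been split uncertainly in the counting. Dut, which destroys dUTP, was lower, at a log2 ratio of -0.77 (SE 0.22, adjusted p = 0.0405), with levels that followed the title sets (12.4 and 16.9 against 111 CPM in the controls). Tyms, thymidylate synthase, stood at 318 ± 26.6 and 209 ± 47.1 CPM (adjusted p = 0.0531). In fits without 1 library the call of Nme2 held in 3 of 6, lost without control replicate 1, null replicate 1 or null replicate 2. That of Dut held in 1 of 6, the fit without control replicate 1.

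Of 8 tested partners of the GADD45 proteins, 0 rose and 1 fell set-adjusted (8.65% and 4.16% of all genes), and the median log2 ratio was -0.32. Mapk14, the p38 kinase downstream of MAP3K4, was lower, at a log2 ratio of -0.95 (SE 0.27, adjusted p = 0.0384), a call that held in 1 of 6 fits without 1 library, the fit without null replicate 3. Its levels were 25.8, 21.4 and 77.4 CPM in the controls and at most 56.3 in the null libraries, so the groups overlapped. Map3k4 itself stood at 13.7 ± 3.22 and 8.56 ± 2.74 CPM (adjusted p = 0.245), Cdk1 at 167 ± 24.6 and 116 ± 44.5 (adjusted p = 0.181), and Ccnb1 at 508 ± 97.4 and 405 ± 62.8 (adjusted p = 0.490).

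Among 10 other repair genes linked to p53, 1 rose in both fits and 0 fell. Of all tested genes 8.65% rose set-adjusted and 1.14% with group alone. The set-adjusted median log2 ratio of the list was -0.29. Polh and Rev3l are also on the translesion synthesis list, and Pcna is also among the GADD45 partners. The gene that rose was Aen, an exonuclease induced by p53, at 20.2, 23.5 and 20.2 CPM in control replicates 1, 2 and 3 and 59.7, 56.1 and 65.6 CPM in null replicates 1, 2 and 3 (set-adjusted log2 ratio 1.52, SE 0.22, adjusted p = 0.00138, and with group alone adjusted p = 0.0464). Its set-adjusted call was lost without null replicate 1 and with sex as a further term. With group alone it was lost in all 6 fits without 1 library, with RLE factors, in scaling without globin genes and with sex as a term. The sex term also removed the set-adjusted calls of Cdk7, Ube2b, Wdr48, Nme2, Dut and Mapk14, but not that of Usp1. Of all tested genes, 161 rose and 62 fell with that term. Mgmt, which removes alkyl groups from guanine, stood at 5.11 ± 1.71 and 13.1 ± 3.75 CPM (adjusted p = 0.0772). Pcna, the sliding clamp of replication, stood at 402 ± 25.1 and 357 ± 66.3 CPM (adjusted p = 0.696).

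**Figure D4:**
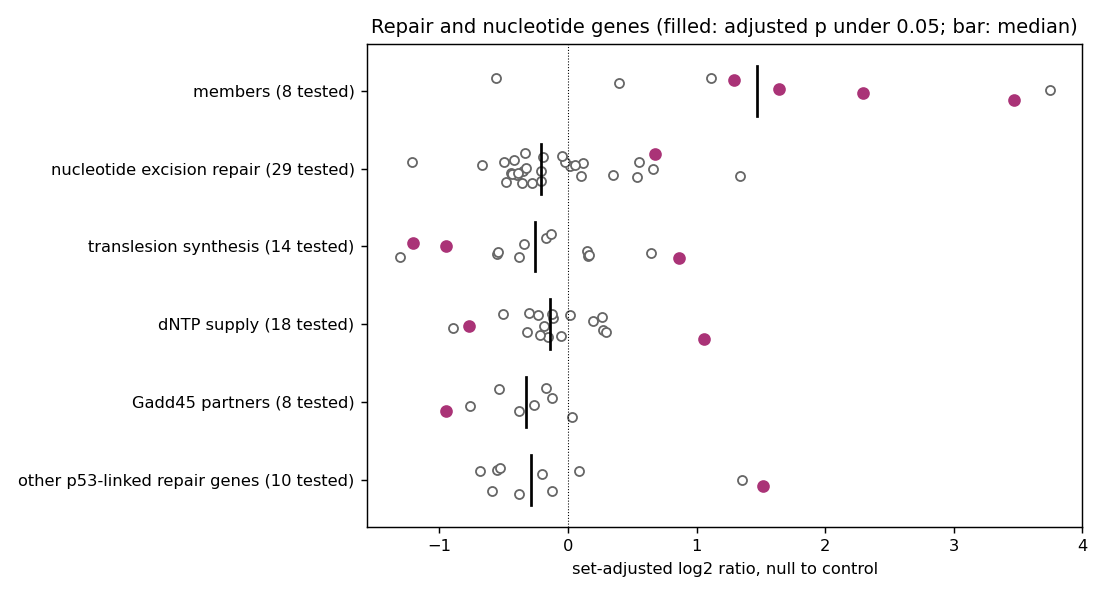
Set-adjusted log2 ratio of null to control (horizontal axis) for the 8 genes and 5 lists of related genes, 1 point per tested gene, filled where the adjusted p was under 0.05, with a bar at the median. The median of the 8 genes is 1.47 and those of the other lists lie between -0.32 and -0.14.

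The genes whose pattern over the 6 libraries came closest were ranked by the root mean square difference of mean-centred log2 CPM, as a description with no test. Ndrg2 was nearest to Polk (0.211), at 4.30, 5.86 and 1.44 CPM in control replicates 1, 2 and 3 and 38.0, 37.1 and 38.5 CPM in the null libraries, and Cdkl4 came next. The actin-bundling gene Pls3 (0.177) and Gstm4 were nearest to Ercc5. Obfc2a (0.131), a single-stranded DNA binding protein, and Prdx5 were nearest to Gadd45a, and Prss23 (0.200) and Rsph9 to Gadd45b. Sidt2 (0.0953) and 1500010J02Rik were nearest to Gadd45g. The patterns of Xpc, Ddb2 and Rrm2b were closest to those of Rasa1 (0.134), Ttbk2 (0.118) and Prox1 (0.330), followed by Klhl17, Ell2 and Wdr5b. Among the 8 genes themselves Gadd45a and Gadd45g were the closest pair (0.409) and Xpc and Gadd45b the farthest (2.03).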

How the data were processed

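The authors deposited raw gene counts, whole numbers listed by symbol in 1 table per library. Per the submitters' processing notes, FastQC, Trimmomatic (0.32), TopHat2 (2.1.0), HTSeq (0.6.1), edgeR and build mm9 were named, without roles. The annotation and strand setting were not stated in the sources used here. In the unlettered set 25 symbols had become dates and were mapped back to gene symbols. Counter summary lines were left out, and no-feature reads were 6.07% to 42.9% of the unlettered totals, highest in control replicate 1. Sample columns left unused numbered 0.

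Tests used edgeR 4.0.16 in R 4.3.3 (filterByExpr by group, TMM, glmQLFit with robust=TRUE, glmQLFTest, 2-sided, Benjamini-Hochberg over 10512 genes at 0.05), with the title set as a term and with group alone, leaving 3 and 4 residual degrees of freedom. Within-set ratios subtract group means of log2 CPM (prior count 2). Counting intervals and the floor of 3 counts (0.140 to 0.387 CPM per library) cover counting error only. Nothing in the labels says whether the replicates are separate embryos, and p-values cover only variation among these libraries, possibly technical. No library was a duplicate: within groups, chi-square per degree of freedom was 23.0 to 402. The genes and lists were chosen with earlier results of these data known. From the other lists the text names each gene called in both fits, the 3 smallest set-adjusted p-values and the most abundant gene, and 1 gene that this rule names is not reported here. Alternatives were RLE factors, scaling without globin genes, DESeq2 1.42.0, no filter, a filter of 1 CPM in 3 libraries, sex as a term, a prior count of 0.5, and leaving out each library.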

Additional observations from a re-analysis of the deposited data

How the results depend on the processing

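Set-adjusted, 4 of the 8 genes rose under RLE factors, scaling without globin genes, DESeq2, no filter and the stricter filter, and in these fits 0 fell. Of all tested genes, 855 to 1262 rose in them. With sex as a further term 2 rose, Polk and Ercc5, while the log2 ratios of Gadd45a and Gadd45g were 1.98 and 1.33 against 1.64 and 1.29. With 1 library left out 2 to 4 rose, lowest without null replicate 1, which leaves the unlettered set without a null library. Calls over all tested genes dropped as well. Set-adjusted, 909 of 10512 rose in the main fit, 161 with sex as a term and 162 of 10858 without null replicate 1. In the other fits without 1 library 523 to 869 rose. With group alone, where 1 rose, 4 rose with DESeq2, 2 without a filter and 0 with sex as a term, a term carried among controls by replicate 1. With 1 library left out 0 to 3 rose, highest without control replicate 3. Calls over all tested genes moved likewise. With group alone 120 rose in the main fit, 697 with DESeq2, 264 without a filter and 0 with sex as a term. Without control replicate 3 it was 109, and 3 to 41 without any other library. Genes that did not pass in either fit changed sign in some: with sex as a term Ddb2 had a set-adjusted log2 ratio of -0.033 and Xpc 0.18 with group alone. With 1 library left out Rrm2b ran from -0.56 to 2.82 set-adjusted and from -0.28 to 1.86 with group alone, and Xpc from -0.82 to 0.12 with group alone. The cause was not tested. The log2 ratio of Gadd45b within the unlettered set was 5.79 with a prior count of 0.5, since both controls were at 0. DESeq2 gave no adjusted p for the difference between sets in any of the 8 genes. Rrm2b and Gadd45b had 73 and 9 counts over the controls, and pooled counts gave null over control ratios of 1.77 (exact 95% counting interval 1.33 to 2.38) and 10.1 (5.12 to 22.7). No paired analysis was possible because the labels give the libraries no replicate numbers.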
